A study of Caenorhabditis elegans with 4 samples.

Results

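The GATA factors of the *C. elegans* gut and epidermis were described as a set of 10 named genes, *med-1*, *med-2*, *end-3*, *end-1*, *elt-7*, *elt-2*, *elt-1*, *elt-3*, *egl-18* and *elt-6*. They were matched by symbol to the annotation of an Affymetrix *C. elegans* genome array. The annotation lists a probe set, the group of probes that reads 1 transcript, for 9 of the 10 genes, and 13 probe sets in all, of 22548 on the array that are not controls. None is listed for *med-2*, and 0 of the 13 name several genes. *med-1* and *med-2* are near-identical copies, and whether the *med-1* probe set also reads *med-2* RNA was not tested.

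RNA came from embryos released from gravid adults with hypochlorite, and each label has 2 arrays. The label *daf-19(-)* stands for animals that carry both *daf-19(m86)* and *daf-12(sa204)*, and the label *daf-19(+)* for animals with *daf-12(sa204)* alone, so that the allele of *daf-12*, a nuclear hormone receptor gene, is shared by all 4. *daf-19* encodes the RFX transcription factor of ciliated neurons, and the arrays were made to find the genes that it regulates. No source used here gives the stages of the embryos, and eggs inside gravid adults are of mixed age.

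The labels of the groups are in doubt. In a supplementary table of the paper the columns headed as *daf-12* single mutants hold the values deposited as *daf-19(-)*, and the columns headed as double mutants hold those deposited as *daf-19(+)*, in 1998 of 1998 rows compared. *daf-19* itself had a ratio of mean signals of 2.99 and 2.98 on its 2 probe sets, higher on the arrays labelled *daf-19(-)*. Differences below follow the deposited labels, *daf-19(-)* against *daf-19(+)*, and every direction turns round if the supplementary headings hold. Across the 4 arrays the median signal ran from 106.0 to 144.4. Log2 signals correlated at 0.974 between the arrays labelled *daf-19(-)* and at 0.960 between those labelled *daf-19(+)*. Replicate 1 labelled *daf-19(+)* had the lowest values with the arrays of the other label, 0.937 and 0.935. Replicate 2 labelled *daf-19(+)* had 0.958 and 0.962 with the arrays of the other label, about as high as with the replicate of its own label. These correlations run over probe sets, which are no replicates.

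GATA factors bind DNA through a zinc finger, which in most of them recognises the letters GATA, and in the worm embryo they act in short relays. In the gut relay the maternal factor SKN-1 turns on *med-1* and *med-2* in the endomesoderm precursor, the MED proteins help to turn on *end-3* and *end-1* in the E cell, which founds the intestine, and the END proteins start *elt-7* and *elt-2*. The *med* and *end* genes are transcribed briefly in early embryos, whereas *elt-7* and *elt-2* stay on and ELT-2 drives gut genes for life. In the epidermis *elt-1* specifies the fate early, *elt-3* follows in differentiating epidermal cells, and *egl-18* and *elt-6*, which are adjacent genes with 0 protein-coding genes between them in RefSeq, act in the lateral seam cells.

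*end-1*, *elt-7* and *elt-1* had lower signals on both arrays labelled *daf-19(-)*, as had *med-1*, whose signals were under 80 on every array. *elt-6*, *elt-3* and *elt-2* had higher mean signals there, but the groups overlapped on the brighter *elt-3* and the dimmer *elt-2* probe set. The probe sets of *egl-18* had opposite signs, and *end-3* overlapped between the groups. No member passed the test over all probe sets. The test was limma on log2(signal + 16), a linear model that shares variance estimates across probe sets, on the 13096 probe sets that reached 80 on 2 or more of the arrays, and 12 of the 13 member probe sets were among them. At an adjusted p under 0.05, 0 of the 12 were higher and 0 lower, against 0.359% and 0.084% of all probe sets tested. At an unadjusted p under 0.05, 2 were higher and 1 lower, against 11.2% and 7.06% of all. The member log2 fold changes ran from -0.76 to 0.86 with a median of 0.25, and the median over all probe sets tested was 0.06. With 2 arrays in each group an exact permutation test on a single probe set cannot go below p = 0.333, so the limma values alone are given.

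**Figure D1:**
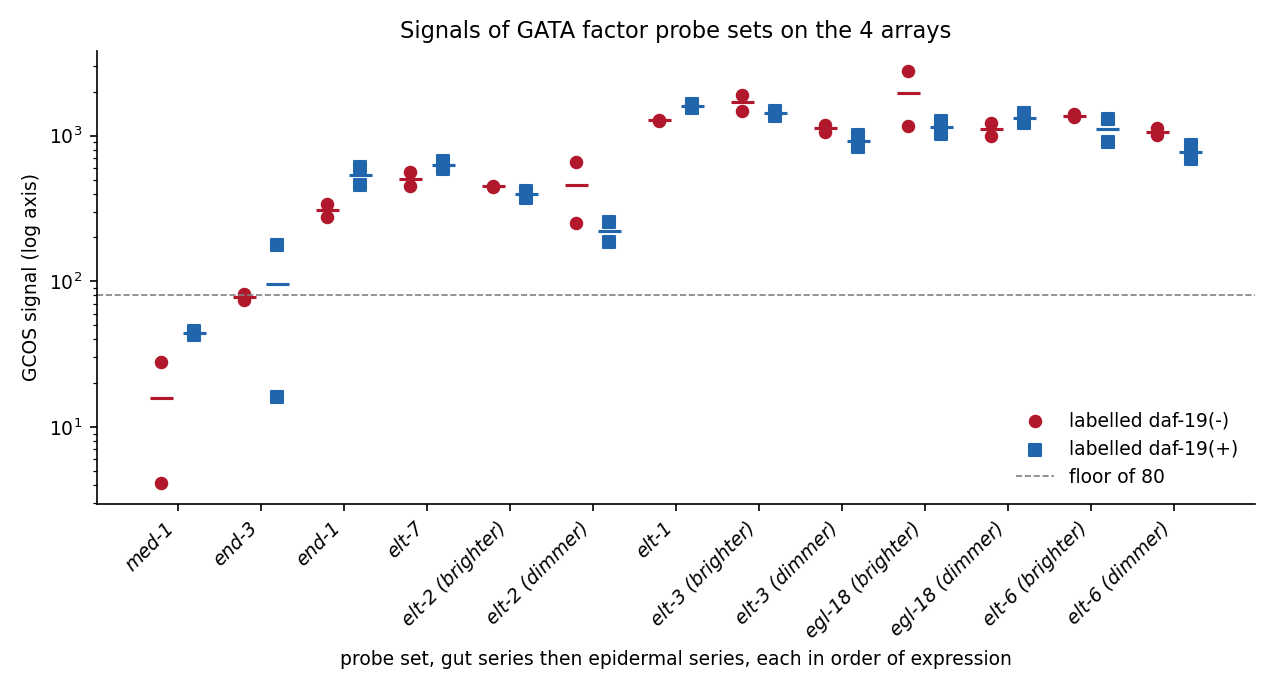
GCOS signal on a log axis for the 13 member probe sets, with the 2 arrays labelled *daf-19(-)* as red circles and the 2 labelled *daf-19(+)* as blue squares, bars at the group means and a dashed line at the floor of 80. Signals of *med-1* lie between 4.1 and 45.6 on all 4 arrays, and heights of different probe sets cannot be set against each other.

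Of the transient factors, *med-1*, which starts the relay, was below the floor on every array. It had signals of 4.1 and 27.7 on the arrays labelled *daf-19(-)*, against 45.6 and 42.8 on those labelled *daf-19(+)*. The groups did not overlap, but all 4 values lie under the floor. When dim probe sets were tested too, its log2 fold change was -1.02 (95% interval -2.30 to 0.26, adjusted p = 0.50 from limma).

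*end-1*, a specifier of the E lineage, had signals of 277.2 and 340.1 on the arrays labelled *daf-19(-)*, against 609.3 and 461.6 on those labelled *daf-19(+)*. Both arrays labelled *daf-19(-)* were lower than both others, and replicate 1 labelled *daf-19(+)* was the highest. The mean was 309 ± 44.5 against 535 ± 104.4 (SD, n = 2 each), a ratio of 0.576, and the log2 fold change was -0.76 (SE, the standard error, 0.26, 95% interval -1.31 to -0.20, adjusted p = 0.17 from limma). It is the largest difference below 0 among the 12 tested member probe sets. The replicate number was also used as a block, in a fit whose p-values take no account of a probe set's own spread. With this block the adjusted p was 0.0496 from limma, where 3.01% of all probe sets were called lower. Without replicate 2 labelled *daf-19(+)* it was 0.0474 from limma, where 7.41% of all were called higher and 4.69% lower, while all 4 arrays with no block gave 0.084% lower. Its ratio lay between 0.507 and 0.669 when single arrays were left out.

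*end-3* is the paralog that acts just before *end-1*. Its signals were 81.7 and 75.0 on the arrays labelled *daf-19(-)*, against 177.1 and 16 on those labelled *daf-19(+)*. The arrays labelled *daf-19(+)* were the highest and the lowest of the 4, so the groups overlapped fully. The ratio of mean signals was 0.811, below 1, while the mean of log2 values lay above 0. The log2 fold change of 0.26 (SE 0.66, adjusted p = 0.86 from limma) had the wide 95% interval of -1.16 to 1.68. Without replicate 2 labelled *daf-19(+)* it was -1.03, and without replicate 1 of that label it was 1.56, so 1 dim array sets its sign. *end-3* passed the floor on 1 array of each label only, and with a floor of 200 *end-1* was the only transient factor left.

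Of the maintained gut factors, *elt-7*, which acts beside *elt-2*, was lower in mean signal. It had 562.8 and 452.5 on the arrays labelled *daf-19(-)*, against 591.9 and 668.3 on those labelled *daf-19(+)*. The groups did not overlap, although the nearest arrays lay close together. The log2 fold change was -0.31 (SE 0.23, 95% interval -0.81 to 0.19, adjusted p = 0.49 from limma).

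*elt-2*, the main driver of gut differentiation, is read by a pair of probe sets that differed in size and not in sign. The brighter gave 453.5 and 446.9 on the arrays labelled *daf-19(-)*, against 372.7 and 418.8 on those labelled *daf-19(+)*. The groups did not overlap, and the log2 fold change was 0.18 (SE 0.24, 95% interval -0.34 to 0.70, adjusted p = 0.71 from limma). The dimmer gave 253.4 and 657.4 on the arrays labelled *daf-19(-)*, against 186.8 and 255.3 on those labelled *daf-19(+)*, and here replicate 2 labelled *daf-19(-)* stood far above the rest. Its log2 fold change was 0.86 (SE 0.37, 95% interval 0.07 to 1.65, adjusted p = 0.24 from limma), with an adjusted p of 0.0382 with the replicate number as a block. Without replicate 2 labelled *daf-19(-)* its ratio of mean signals was 1.15, against 2.06 with all 4 arrays, so that the size of this value comes from a single array.

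In the epidermis *elt-1*, which specifies epidermal fate, was lower on both arrays labelled *daf-19(-)*. Its signals were 1257.3 and 1290.6 there, against 1559.1 and 1662.8 on the arrays labelled *daf-19(+)*. The arrays of each label lay close together and the groups did not overlap. The log2 fold change was -0.33 (SE 0.19, 95% interval -0.75 to 0.08, adjusted p = 0.36 from limma), and with 1 array left out it ranged from -0.38 to -0.29, the narrowest range among the 12 tested member probe sets.

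*elt-3*, a factor of differentiating epidermal cells, was higher in mean signal on both of its probe sets. The brighter gave 1483.5 and 1917.2 on the arrays labelled *daf-19(-)*, against 1361.8 and 1487.8 on those labelled *daf-19(+)*, with a slight overlap of the groups. The dimmer gave 1184.0 and 1059.3 on the arrays labelled *daf-19(-)*, against 832.7 and 1008.7 on those labelled *daf-19(+)*, with no overlap. The log2 fold changes were 0.24 and 0.28 (SE 0.20 and 0.21, adjusted p = 0.54 and 0.48 from limma), so the pair gave nearly the same size and neither passed.

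*elt-6*, of the seam cells, was higher on all 4 comparisons of its probe sets within a replicate number. The dimmer probe set gave 1010.2 and 1123.4 on the arrays labelled *daf-19(-)*, against 687.1 and 863.6 on those labelled *daf-19(+)*, a log2 difference of 0.46 (SE 0.22, 95% interval 0.00 to 0.92, adjusted p = 0.28 from limma). The brighter gave 1341.1 and 1400.9 on the arrays labelled *daf-19(-)*, against 903.6 and 1303.6 on those labelled *daf-19(+)*, a log2 difference of 0.33 (SE 0.22, adjusted p = 0.43 from limma). Neither probe set overlapped between the groups, and replicate 1 labelled *daf-19(+)* was the lowest array on both. Without that array the ratios of mean signals were 1.24 and 1.05, against 1.38 and 1.24 with all 4.

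*egl-18*, the neighbour of *elt-6* and its partner in the seam, gave opposite signs on its probe sets. The brighter had 1172.5 and 2766.5 on the arrays labelled *daf-19(-)*, against 1253.3 and 1034.0 on those labelled *daf-19(+)*. Only replicate 2 labelled *daf-19(-)* stood out, and the other 3 arrays lay between 1034.0 and 1253.3. The log2 fold change was 0.66 (SE 0.30, adjusted p = 0.27 from limma, and 0.0319 with the replicate number as a block). Within the replicate numbers the log2 differences were -0.09 and 1.41, of opposite signs, a spread that the fit with the block takes no account of. Without replicate 2 labelled *daf-19(-)* the ratio of mean signals was 1.03, against 1.72 with all 4. The dimmer probe set had 1222.0 and 1001.6 on the arrays labelled *daf-19(-)*, against 1437.2 and 1226.7 on those labelled *daf-19(+)*, a log2 difference of -0.26 (SE 0.21, adjusted p = 0.52 from limma). Here the arrays labelled *daf-19(-)* were lower, with the nearest pair at 1222.0 and 1226.7.

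**Figure D2:**
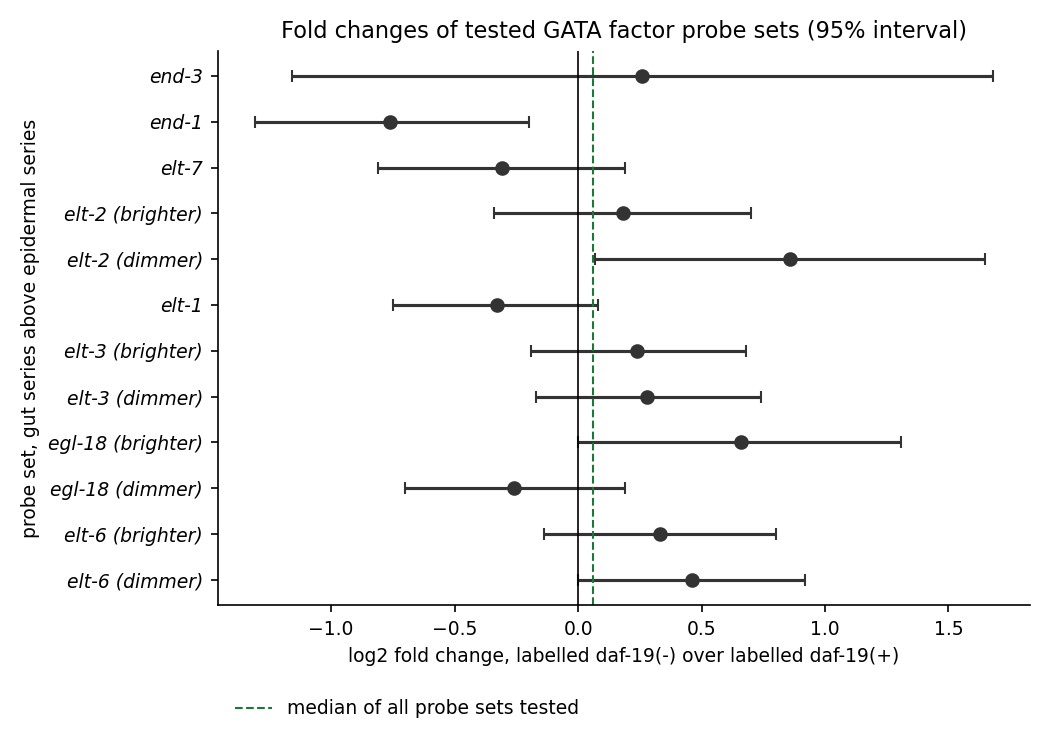
Log2 fold change (arrays labelled *daf-19(-)* over arrays labelled *daf-19(+)*) of the 12 tested member probe sets with 95% intervals from limma, the gut series above the epidermal series, and a dashed line at the median of all probe sets tested, 0.06. The intervals are not adjusted for the number of probe sets. The interval of *end-1* lies wholly below 0 and that of the dimmer *elt-2* wholly above it. That of the brighter *egl-18*, 0.00 to 1.31 when rounded, lies just above 0, and the *egl-18* pair points in opposite directions. The interval of *end-3* runs from -1.16 to 1.68.

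Counted together, 4 of the 12 tested member probe sets were higher on both arrays labelled *daf-19(-)* than on either array labelled *daf-19(+)*, against 29.7% of all probe sets tested. Another 4 were lower without overlap, against 21.6% of all. These shares are near the background and are no result about the GATA factors. The probe sets higher without overlap were both of *elt-6*, 1 of *elt-3* and 1 of *elt-2*, and those lower were of *end-1*, *elt-7*, *elt-1* and *egl-18*. In mean signal 1 of the 12 was 2-fold or more higher, the dimmer probe set of *elt-2*, against 3.13% of all, and 0 were 2-fold lower, against 0.977%.

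The block on the replicate number, which fits the difference within each numbered pair of arrays, called 2 of the 12 higher and 1 lower, against 4.37% and 3.01% of all probe sets tested. They are the dimmer *elt-2*, the brighter *egl-18* and *end-1*. The first pair of these rests on replicate 2 labelled *daf-19(-)*, and none of the calls takes account of a probe set's own spread. The median log2 fold change was -0.25 for the 2 tested transient probe sets, *end-3* and *end-1*, and 0.26 for the 10 maintained ones. The first of these medians was 0.50 without replicate 1 and -0.99 without replicate 2 labelled *daf-19(+)*, and the second was 0.12 without replicate 1 labelled *daf-19(+)* and 0.13 without replicate 2 labelled *daf-19(-)*.

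For some members the replicates of a label differed by more than the labels did. The same counts were not taken over all probe sets, so those below describe these values and are no result about the GATA factors. They also set a gap between single arrays against a gap between means, which are unlike measures. Of the 13 member probe sets, the gap between the 2 arrays labelled *daf-19(-)* was larger than the gap between the group means for 5, that between the 2 arrays labelled *daf-19(+)* for 2, and either of them for 7, on the log2 scale. *end-3* differed by 2.59 log2 units between replicates labelled *daf-19(+)*, and the dimmer *elt-2* by 1.32 and the brighter *egl-18* by 1.23 between replicates labelled *daf-19(-)*. The difference between labels had the same sign in both replicate numbers for 11 of the 13, the exceptions being *end-3* and the brighter *egl-18*.

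For genes with a pair of probe sets the difference between them, in log2 units, would be equal on all arrays if both read the same RNA equally well. That of *elt-6* ran from 0.31 to 0.59 and that of *elt-3* from 0.32 to 0.85. That of *egl-18* was 1.45 on replicate 2 labelled *daf-19(-)* and from -0.24 to -0.06 on the other arrays, and that of *elt-2* was -0.54 on replicate 2 labelled *daf-19(-)* and from 0.68 to 0.94 on the others. Over the 2335 genes with at least 2 tested probe sets the median range over the arrays was 0.57, and the ranges of 1.69 for *egl-18* and 1.48 for *elt-2* were wider than those of 98% and 97% of these genes. Both rest on the same array, on which 1 probe set of each gene was high and its partner was not. Whether the probe sets read different transcripts was not tested.

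**Figure D3:**
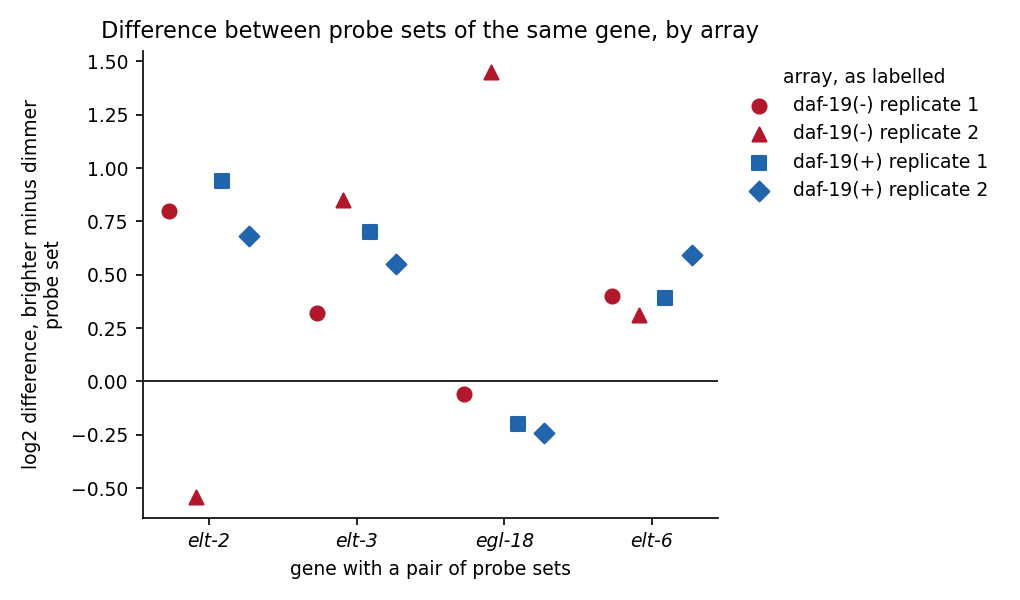
Log2 difference between the brighter and the dimmer probe set of each GATA factor gene with a pair of them, for the 4 arrays by label and replicate. Replicate 2 labelled *daf-19(-)* stands at 1.45 for *egl-18* and at -0.54 for *elt-2*, apart from the other 3 arrays of each gene.

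Other genes of the early embryo were mostly lower on the arrays labelled *daf-19(-)* as well. Of 15 tested early embryo genes, among them *pes-10* and *vet-2*, 0 were called, 14 had a log2 fold change below 0 and 12 were lower without overlap, against the 21.6% of all. *ceh-51*, among those lower, reached the floor only on the arrays labelled *daf-19(+)*. The list was chosen with earlier results of these data known, so its counts are a description. The median log2 fold change of the list was -0.59, and its signals summed to 10497 and 11267 on the arrays labelled *daf-19(-)*, against 17393 and 15047 on those labelled *daf-19(+)*. From lowest to highest both this sum and *end-1*, though not each gene of the list, ran replicate 1 and replicate 2 labelled *daf-19(-)*, then replicate 2 and replicate 1 labelled *daf-19(+)*. *pes-10*, an early zygotic gene, had 887.1 and 753.3 on the arrays labelled *daf-19(-)*, against 1530.8 and 1241.3 on those labelled *daf-19(+)* (log2 fold change -0.74, adjusted p = 0.13 from limma, and 0.0179 with the block). The values for *pes-1*, *vet-2* and *vet-6* were -0.62, -0.57 and -0.43 (adjusted p = 0.27, 0.20 and 0.23 from limma), and without replicate 2 labelled *daf-19(+)* the median of the list was -0.89.

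Of 20 tested late embryo genes, 18 had a log2 fold change above 0, 0 were called and the median was 0.30, which was 0.06 without replicate 1 labelled *daf-19(+)*. Without overlap 9 were higher and 1 lower, against 29.7% and 21.6% of all probe sets tested. Their signals summed to 89009 and 83809 on the arrays labelled *daf-19(-)*, against 68419 and 84168 on those labelled *daf-19(+)*. The late list shares genes with the gut, epidermal, muscle and neuron lists, such as *cpr-6*, *dpy-13*, *unc-54* and *rab-3*. The signs of these lists thus rest in part on the same values. For *hch-1*, the hatching protease gene, the log2 fold change was 0.29 (adjusted p = 0.38 from limma), and the pharyngeal and muscle myosin genes *myo-1*, *myo-2* and *myo-3* had 0.58, 0.47 and 0.17 (adjusted p = 0.22, 0.44 and 0.80 from limma). The sums of the early list did not overlap between the labels and those of the late list did, and the part of embryo stage in the values of the GATA factors was not tested. In such mixed RNA fewer cells of a type and less RNA in each cell cannot be told apart.

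**Figure D4:**
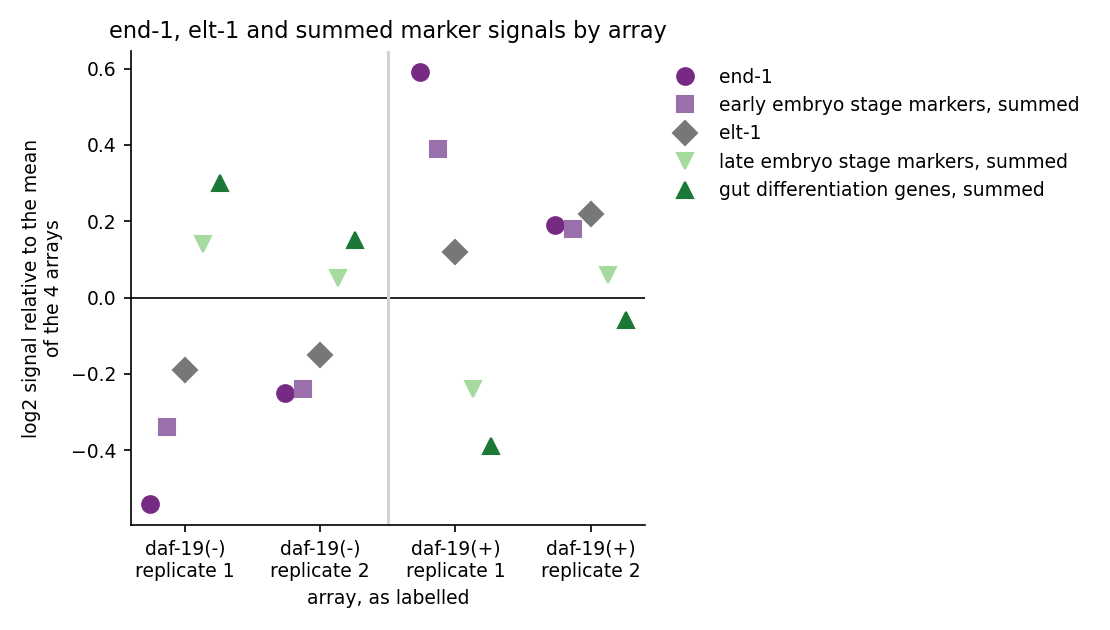
Log2 signal of *end-1*, *elt-1* and the summed early embryo, late embryo and gut genes on each array, relative to the mean of the 4 arrays, with the arrays labelled *daf-19(-)* on the left. *end-1* runs from -0.54 on replicate 1 labelled *daf-19(-)* to 0.59 on replicate 1 labelled *daf-19(+)*, where the gut genes stand lowest at -0.39.

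Upstream of the GATA relay, 18 genes that feed it were tested, such as maternal factors and the Wnt and Src signals received by the endomesoderm precursor. By limma 0 were called higher or lower, 14 had a log2 fold change below 0, 3 were lower without overlap, against 21.6% of all probe sets, 0 were higher without overlap, and the median was -0.09. The values farthest from 0, chosen after they were seen, were 0.66 for *gsk-3*, a kinase of the Wnt branch, and -0.43 for *mex-1*, a maternal RNA-binding protein gene (adjusted p = 0.44 and 0.30 from limma). *gsk-3* had 153.6 and 149.6 with the label *daf-19(-)*, against 155.8 and 49.2 with *daf-19(+)*, so a single array under the floor sets its value. *skn-1*, the direct activator of the *med* genes, had 879.3 and 1014.2 on the arrays labelled *daf-19(-)*, against 966.8 and 904.0 on those labelled *daf-19(+)* (log2 fold change 0.01, adjusted p = 0.98 from limma). Its signals overlapped fully. *sys-1*, *wrm-1* and *lit-1*, of the Wnt branch, had -0.03, -0.03 and 0.06 (adjusted p = 0.95, 0.96 and 0.90 from limma). *pop-1*, their TCF partner, was below the floor, with 40.4 to 48.5 on the 4 arrays.

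Beside the gut relay the MED proteins act in the MS lineage, which makes pharynx and muscle. Of 7 tested genes of the MS and pharynx list 0 were called, 4 were below 0 and the median log2 fold change was -0.14, which was 0.06 without replicate 2 labelled *daf-19(+)*. *ceh-51*, an early homeobox gene of MS and a member of the early embryo list too, had 59.2 and 76.5 on the arrays labelled *daf-19(-)*, against 184.9 and 143.0 on those labelled *daf-19(+)* (log2 fold change -1.10, adjusted p = 0.18 from limma). As with *end-1*, both arrays labelled *daf-19(-)* were lower, but here both of these signals lay under the floor of 80. *ceh-51* was thus tested only through its signals on the arrays labelled *daf-19(+)*, and the likeness to *end-1* is a description. *tbx-35*, the MED target upstream of *ceh-51*, had 12.9 and 28.4 on the arrays labelled *daf-19(-)*, against 31.3 and 42.3 on those labelled *daf-19(+)*, all under the floor. The later pharyngeal factors *pha-4*, *ceh-22* and *tbx-2* had log2 fold changes of 0.08, 0.34 and 0.28 (adjusted p = 0.86, 0.54 and 0.48 from limma).

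Downstream of *elt-2* and *elt-7*, gut differentiation genes were higher in mean signal almost throughout. Of 19 tested, 18 had a log2 fold change above 0 and 13 were higher without overlap, against the 29.7% of all. The share of all probe sets above 0 was not counted. The list was chosen with earlier results of these data known and its genes are no replicates, so these counts are a description. By limma 0 were called higher and 0 lower, and the block gave 4 higher and 0 lower, against 4.37% and 3.01% of all probe sets tested. The median log2 fold change was 0.44, and it was 0.28 without replicate 1 and 0.78 without replicate 2 labelled *daf-19(+)*. Their signals summed to 33346 and 29920 on the arrays labelled *daf-19(-)*, against 20553 and 25923 on those labelled *daf-19(+)*, the order of *end-1* in reverse.

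*cpr-6*, a cysteine protease of the gut, had 1575.9 and 1634.4 on the arrays labelled *daf-19(-)*, against 724.5 and 1136.6 on those labelled *daf-19(+)* (log2 fold change 0.81, adjusted p = 0.13 from limma, and 0.00669 with the block). *asp-1*, an aspartyl protease, had 7146.5 and 5467.5 on the arrays labelled *daf-19(-)*, against 3644.7 and 4649.1 on those labelled *daf-19(+)* (log2 fold change 0.60, adjusted p = 0.15 from limma, and 0.022 with the block). The log2 fold change was 0.41 for *ges-1*, the gut esterase gene, and 0.34 for *ftn-1*, a ferritin gene (adjusted p = 0.51 and 0.64 from limma). Of the *elt-2* probe sets the brighter, at 0.18, lay below the median of this list and the dimmer, at 0.86, above it.

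Of 14 tested epidermal factors and 22 tested differentiation genes 0 were called in either direction, with median log2 fold changes of 0.10 and 0.18. Higher without overlap were 5 and 7 of them, against 29.7% of all probe sets tested, and 1 of each list was lower, against 21.6%. The median of the factors was -0.01 without replicate 2 labelled *daf-19(-)* and 0.22 without replicate 1 of that label. That of the differentiation genes was 0.07 without replicate 1 and 0.40 without replicate 2 labelled *daf-19(+)*, and 0.10 without replicate 2 labelled *daf-19(-)*. *lin-26*, which keeps epidermal cells epidermal, and *nhr-25* and *nhr-23*, nuclear receptors of the epidermis, had 0.19, 0.03 and 0.40 (adjusted p = 0.59, 0.96 and 0.38 from limma). The cuticle collagen genes *dpy-7*, *dpy-2* and *dpy-3* had 0.21, 0.35 and 0.34 (adjusted p = 0.64, 0.33 and 0.31 from limma), while *dpy-4* had -0.16 (adjusted p = 0.68 from limma). Thus *elt-1*, lower on both arrays labelled *daf-19(-)*, and *elt-3*, higher in mean signal, stood on either side of the medians of these lists.

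Of 10 tested seam cell genes, a list that holds *elt-1* too, 9 had a log2 fold change of 0.00 or above and *elt-1* alone was below 0. Without overlap 5 were higher and 1 lower, against 29.7% and 21.6% of all probe sets tested. *ceh-16*, *nhr-25* and *eff-1* stand in the epidermal lists as well. The median was 0.50, 0 were called, and the median was 0.31 over the mean of each gene's probe sets and 0.23 without replicate 2 labelled *daf-19(-)*. *wrt-2*, a Hedgehog-related gene of the seam, had 5119.3 and 4974.1 on the arrays labelled *daf-19(-)*, against 3218.7 and 3824.1 on those labelled *daf-19(+)* (log2 fold change 0.52, adjusted p = 0.16 from limma). *grd-10*, of the same family, and *rnt-1*, a Runx factor, had 0.90 and 0.59 (adjusted p = 0.19 and 0.27 from limma), and *ceh-16*, the engrailed gene of the seam, had 0.00 (adjusted p = 0.99 from limma). *elt-6*, at 0.33 and 0.46, had the sign of most of this list.

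**Figure D5:**
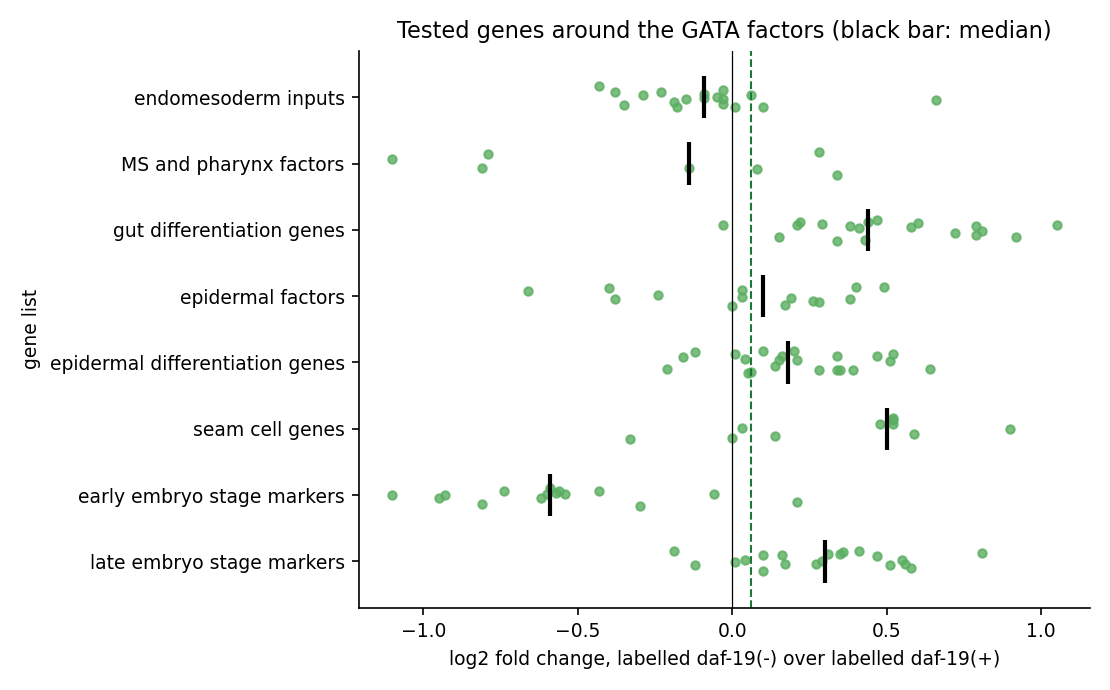
Log2 fold change (arrays labelled *daf-19(-)* over arrays labelled *daf-19(+)*) of the tested genes of 8 lists, 1 green point for each gene, with a black bar at each median and a dashed line at the median of all probe sets tested, 0.06. Gut genes center on 0.44 and early embryo genes on -0.59, and 0 genes of these lists passed limma over all probe sets.

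Markers of other cells were checked in the same way. Of 12 neuron and 12 body muscle genes, 11 of each had a log2 fold change above 0 and 0 of each were called, with medians of 0.55 and 0.36. Higher without overlap were 8 neuron and 6 muscle genes, against 29.7% of all probe sets tested, and 1 and 0 were lower, against 21.6%. The share of all probe sets above 0 was not counted. Without replicate 1 labelled *daf-19(+)* these medians were 0.17 and 0.08, and without replicate 2 of that label they were 0.89 and 0.67. Genes of these tissues thus mostly had the sign of the gut genes. The medians of the epidermal lists, 0.10 and 0.18, lay nearer to the 0.06 of all probe sets tested. Whether the medians differ between tissues was not tested. Of 16 adult and germline genes with a probe set 8 were bright enough to test, with a median of -0.14 and summed signals of 10371 and 8786 on the arrays labelled *daf-19(-)*, against 12046 and 8999 on those labelled *daf-19(+)*. The vitellogenin gene *vit-2*, made in the adult gut, lay between 1.5 and 18.4 on the 4 arrays, but *vit-6* had 58.0 and 94.9 on the arrays labelled *daf-19(-)*, against 66.2 and 434.1 on those labelled *daf-19(+)*, and replicate 2 labelled *daf-19(+)* stood apart. *vit-5* had 42.3 and 16.5 with the label *daf-19(-)*, against 17.4 and 282.3 with *daf-19(+)*. *vit-4* had 27.8 and 41.1 with *daf-19(-)*, against 31.4 and 210.2 with *daf-19(+)*, so the same array was high for both genes, which were named after their values were seen. The 8 tested genes of the list were mixed. *vit-6*, *rme-2* and *msp-19* were higher on replicate 2 labelled *daf-19(+)*, and *puf-5*, *puf-11*, *oma-1*, *oma-2* and *msp-31* on replicate 1. Over the 8, replicate 1 lay above replicate 2 by a median of 0.43 log2 units. Without replicate 2 labelled *daf-19(+)* the log2 fold change was -0.95 for *end-1* and -1.03 for *end-3*, and the part of adult RNA in those values was not tested.

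The genes with the profile nearest to *end-1* over the 4 arrays, by the Euclidean distance of log2 deviations from each gene's own mean among 9724 tested genes, were *F42A9.8*, *F55A11.8*, *F39F10.3*, *K03H1.7* and *cyp-31A5*, at distances from 0.04 to 0.08. *F42A9.8* had 1018.7 and 1276.3 on the arrays labelled *daf-19(-)*, against 2281.9 and 1696.0 on those labelled *daf-19(+)*. Those nearest to the brighter probe set of *elt-2* were *C48B6.10*, *ZC373.5*, *W07E11.1*, *F39C12.1* and *sqst-1*, at distances from 0.01 to 0.03. With 4 arrays such distances are small for many genes, and they are given as a description.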

How the data were processed

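Labelled RNA of each sample was hybridised by the authors to an Affymetrix *C. elegans* genome array and processed chip by chip with the GCOS software, whose version is not given in the sources used here. The deposited values are signals on a linear intensity scale, brought by the authors to a common target of 500 on each chip. The scaling sets every chip to the same trimmed mean, so values are relative to the whole array, and nothing was done between chips. Detection calls were not used here. 77 control probe sets were left out. The platform annotation names 1 gene for 20766 probe sets, several for 887, and does not list 895. Symbols were updated through RefSeq for 20701 probe sets. 0 columns of values were left unused. No sequences are shown, because none of the members' sequences were in the sources used here.

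The 13096 probe sets that reached a signal of 80 on 2 or more arrays were tested on the log2(signal + 16) scale with limma 3.58.1 in R 4.3.3 (lmFit, eBayes, variance trend). Tests were two-sided, with Benjamini-Hochberg adjustment over all of them and a threshold of 0.05. The offset understates fold changes of dim probe sets. Ratios are of mean signals with no offset, and 2 is the fold threshold. In the lists the brightest tested probe set stands for each gene. Named genes are all members and, for each list, members called by limma, filled up to 4 with the first tested genes in the written order; other genes named were chosen after their values were seen. The fit was tested on simulated data.

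Samples were grouped by their deposited labels. Arrays were paired by replicate number, because the paper's supplementary table gives a fold within each number. Deviations of same-numbered arrays from their group means correlated at 0.12 across 13096 probe sets. In the fit with the block the variances come from their trend alone, and its p-values take no account of a probe set's own spread. No source used here says that the replicates are separate cultures. The p-values then cover the spread of these 4 arrays alone, which may be technical, and precision is limited by 2 arrays for each label. The members and lists were chosen with earlier results of these data known. Alternatives were other floors and offsets, quantile normalization, no variance trend, the replicate block, ratios within replicate numbers, the mean over a gene's probe sets, and each array left out.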

Additional observations from a re-analysis of the deposited data

How the results depend on the processing

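With all 4 arrays 0 member probe sets were called higher and 0 lower. This held with no floor, with a floor of 200, after quantile normalization, with offsets of 1 and 64 and with no variance trend. The replicate block gave 2 higher and 1 lower. With 1 array left out, 0 were called higher each time and from 0 to 1 lower, the 1 being *end-1* without replicate 2 labelled *daf-19(+)*, where 7.41% of all probe sets were called higher and 4.69% lower; the lone array left in a group is then assumed to vary like the others. The single probe set 2-fold higher in mean signal (the dimmer *elt-2*) became 0 after quantile normalization, and from 0 to 2 with 1 array left out, 0 without replicate 2 and 2 without replicate 1 labelled *daf-19(-)*. The count of 2-fold lower probe sets went from 0 to 1 (*end-3*) without replicate 2 labelled *daf-19(+)*. With 1 array left out the median of the maintained members lay between 0.12 and 0.36. Of 131 fold changes of members under these alternatives, 1 turned its sign, that of *end-3*, at -1.03 without replicate 2 labelled *daf-19(+)*, against 1.56 without replicate 1 of that label; the cause was not tested. Apart from those of *end-1*, *elt-2* and *egl-18* with the block, and that of *end-1* without replicate 2 labelled *daf-19(+)*, no member changed its side of the threshold. Signals of *med-1* and *end-3* near or under the floor limit what these arrays can show for them.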
